A study of Mus musculus with 12 samples.

Results

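Schwann cell and myelin genes were followed in mouse inguinal white adipose tissue (iWAT), fat that lies under the skin of the groin and is crossed by peripheral nerve. The 8 genes were Prx, Mbp, Pmp22, Cnp, Gldn, Sox10, S100b and Ngfr, taken by symbol from the iWAT table of 33200 Ensembl genes. All 8 were present and all 8 were among the 16656 genes that passed the filter on low counts. They were chosen for study with their knockout and wild-type values in this same comparison already known, so those values are given as a description, and no test of them is reported. The series asks how loss of Nrep changes transcription within a tissue. The groups were global Nrep knockout mice (Nrep-/-, made by CRISPR/Cas editing; KO) and C57BL/6 wild-type mice (WT), 3 libraries each, all aged 16 weeks, fed a standard maintenance diet and kept specific-pathogen-free under 12 h of light and 12 h of darkness. The knockout is global, so Nrep is missing from nerve, fat and blood cells alike; the sources used here do not say which part was deleted. Liver, the other tissue of the series, is not analysed here.

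Schwann cells are the glia of peripheral nerve. A myelinating Schwann cell wraps a large axon in a compact membrane spiral held together by proteins such as Pmp22 and Mbp, while a nonmyelinating (Remak) Schwann cell holds several small axons, including the sympathetic fibres that reach adipocytes, and keeps the low-affinity neurotrophin receptor Ngfr. The transcription factor Sox10 marks the lineage in either state, and Egr2 drives the myelin programme. Several of these genes are also used elsewhere: Mbp has golli transcripts in immune cells, S100b is expressed in adipocytes, Cnp and Pmp22 occur in many cells, and Ngfr is found on some mesenchymal and perivascular cells. In bulk tissue, fewer cells of a type and less RNA per cell cannot be told apart.

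Sequence just before the start of 4 members is shown because their values moved differently: Prx and Pmp22 were higher in KO iWAT, Ngfr was lower on average, and Cnp was split within the KO group. Each line gives 250 bases before the most upstream start listed in RefSeq (GRCm38.p6), on the strand of the gene, at chr7:27499074-27499323 for Prx (plus strand), chr11:63128732-63128981 for Pmp22 (plus strand), chr11:100574689-100574938 for Cnp (plus strand) and chr11:95587699-95587948 for Ngfr (minus strand). Capitals mark matches, on either strand, to the SOX-type motifs ACAAAG or ACAATG or to the EGR-type motif GTGGGNG.
Prx: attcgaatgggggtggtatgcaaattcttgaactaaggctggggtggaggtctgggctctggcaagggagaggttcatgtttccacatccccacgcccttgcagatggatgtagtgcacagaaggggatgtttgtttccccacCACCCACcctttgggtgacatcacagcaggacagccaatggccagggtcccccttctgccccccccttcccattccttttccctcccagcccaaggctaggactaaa
Pmp22: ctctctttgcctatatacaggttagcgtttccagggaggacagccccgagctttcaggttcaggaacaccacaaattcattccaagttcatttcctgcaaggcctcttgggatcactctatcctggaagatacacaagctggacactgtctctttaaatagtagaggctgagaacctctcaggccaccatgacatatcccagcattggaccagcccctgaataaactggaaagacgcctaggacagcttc
Cnp: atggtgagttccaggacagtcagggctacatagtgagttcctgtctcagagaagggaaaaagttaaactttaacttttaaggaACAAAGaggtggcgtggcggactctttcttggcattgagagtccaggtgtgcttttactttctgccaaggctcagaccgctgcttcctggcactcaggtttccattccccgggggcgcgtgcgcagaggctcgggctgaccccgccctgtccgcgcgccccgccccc
Ngfr: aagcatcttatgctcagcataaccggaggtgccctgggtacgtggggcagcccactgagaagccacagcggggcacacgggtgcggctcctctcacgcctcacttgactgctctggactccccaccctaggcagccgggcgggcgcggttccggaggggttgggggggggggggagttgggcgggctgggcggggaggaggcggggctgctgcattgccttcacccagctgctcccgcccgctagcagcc
The Prx window held 1 GTGGGNG match, on the minus strand at position -107, and the Cnp window held 1 ACAAAG match at position -167, each counted from the start to the first printed base of the match. The Pmp22 and Ngfr windows held none of the 3 motifs. Among all 32851 RefSeq windows of the same length, 16.5% held ACAAAG, 10.7% ACAATG and 28.1% GTGGGNG, so a match is common. The Pmp22 gene has 4 listed starts, and the gene-level counts do not separate the transcripts that begin at them.

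Library totals ranged from 17970432 to 20369327 counts. Nrep had 2, 2 and 5 counts in KO libraries 1, 2 and 3, against 1404, 1640 and 1300 counts in WT libraries 1, 2 and 3. KO library 2 stood apart from the other KO libraries in its mix of tissue transcripts: its summed lymphocyte markers were 1005 CPM (TMM-normalised counts scaled to a common library size), against 531 and 278 CPM in KO libraries 1 and 3 and 1008 to 1020 CPM in WT, and its summed skeletal muscle markers were 526 CPM, against 3235 and 2838 CPM in KO libraries 1 and 3 and 7.74 to 14.3 CPM in WT. The fold change without KO library 2 is therefore given for each of the 8 members, and the count of list genes called without it. For single list genes it is mostly not given, although some of them moved. The adipocyte markers Fabp4, Adipoq, Plin1 and Cidec were abundant in all 6 libraries, with the 6 listed adipocyte markers summing to 10531 to 18436 CPM in KO and 7249 to 9887 CPM in WT.

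Prx and Pmp22, proteins of the myelin-forming Schwann cell, were higher in every KO library than in every WT library. Mbp also did not overlap, by a smaller margin. Ngfr averaged 0.493 times its WT level, while the lineage markers Sox10 and S100b and the nodal protein Gldn overlapped between genotypes. In 3 of the 8, every KO value was above every WT value, and in 0 of the 8 every KO value was below; over all tested genes 28.3% did not overlap, 15.2% with KO above. Nothing is read from these counts, since the members were picked on this contrast. Their median log2 fold change was 0.16, against -0.06 over all tested genes, and -0.05 without KO library 3.

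**Figure D1:**
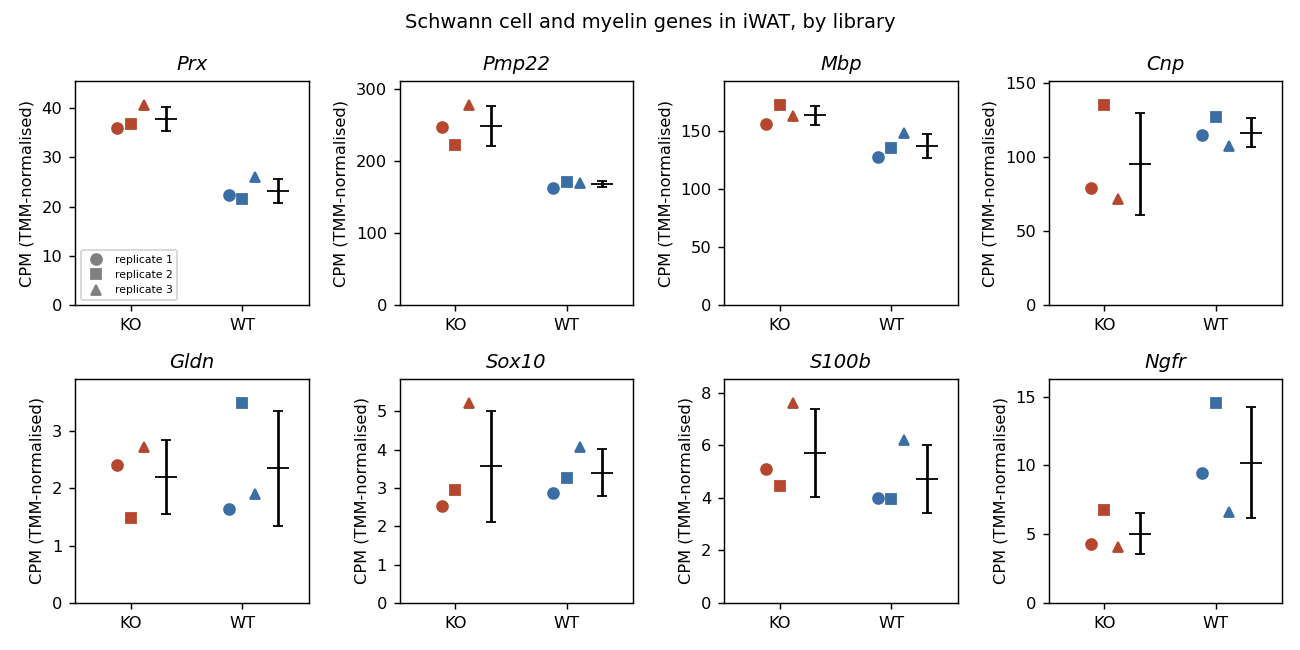
TMM-normalised CPM of the 8 genes (vertical axes, each from 0) in KO and WT iWAT; each symbol is 1 library, and the black bar with whiskers is the group mean ± SD (n = 3). Prx, Pmp22 and Mbp separate the genotypes, and Ngfr overlaps only between KO library 2 (6.75 CPM) and WT library 3 (6.59 CPM).

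Prx (ENSMUSG00000053198, chromosome 7) encodes periaxin, a scaffold that links the outer Schwann cell membrane to the basal lamina through dystroglycan. It had 35.9, 36.7 and 40.6 CPM in KO libraries 1, 2 and 3, against 22.2, 21.5 and 26.0 CPM in WT libraries 1, 2 and 3. The lowest KO library was above the highest WT library, and KO library 2 lay with its group. The means were 37.7 ± 2.49 CPM in KO and 23.2 ± 2.42 CPM in WT (SD, n = 3 each), and the fitted log2 fold change was 0.70 (SE 0.12). Without KO library 2 it was 0.78, and without KO library 3 it was 0.64.

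Pmp22 (ENSMUSG00000018217, chromosome 11) encodes a tetraspan protein of compact myelin whose gene dosage causes inherited neuropathy in humans. It had 248, 222 and 278 CPM in KO libraries 1, 2 and 3, against 164, 172 and 170 CPM in WT libraries 1, 2 and 3. The WT libraries lay close together and all KO libraries were above them, KO library 2 the least so. The means were 249.5 ± 28.0 CPM in KO and 168 ± 4.25 CPM in WT (SD, n = 3 each), and the fitted difference was 0.57 on the log2 scale (SE 0.14). Leaving out KO library 2 raised it to 0.70, and leaving out KO library 3 lowered it to 0.48.

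Mbp (ENSMUSG00000041607) encodes myelin basic protein, which compacts the cytoplasmic faces of the sheath. It had 156, 172 and 163 CPM in KO libraries 1, 2 and 3, against 127, 135 and 148 CPM in WT libraries 1, 2 and 3. The genotypes did not overlap, but KO library 1 and WT library 3 were near each other. Mbp averaged 164 ± 8.29 CPM in KO and 137 ± 10.4 CPM in WT (SD, n = 3 each), with a log2 fold change of 0.26 (SE 0.12), and 0.28 without KO library 2. Scaling by library totals alone, which shifted the median of all genes by -0.13 on the log2 scale, gave 0.13 for Mbp, 0.43 for Pmp22 and 0.56 for Prx.

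Cnp (ENSMUSG00000006782, chromosome 11) encodes the cyclic nucleotide phosphodiesterase of noncompact myelin. It had 79.2, 135 and 71.9 CPM in KO libraries 1, 2 and 3, against 115, 127 and 107 CPM in WT libraries 1, 2 and 3. KO libraries 1 and 3 were below all WT libraries and KO library 2 was above them, which is the same split of the KO libraries as in the lymphocyte markers given above. The part of lymphocyte RNA in the Cnp values was not tested. Cnp averaged 95.4 ± 34.6 CPM in KO and 117 ± 10.1 CPM in WT (SD, n = 3 each). Its log2 fold change was -0.29 (SE 0.24), -0.57 without KO library 2, and -0.17 and -0.12 without KO libraries 1 and 3.

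Gldn (ENSMUSG00000046167, chromosome 9) encodes gliomedin, which Schwann cell microvilli place at the node of Ranvier. It had 2.41, 1.48 and 2.72 CPM in KO libraries 1, 2 and 3, against 1.65, 3.50 and 1.91 CPM in WT libraries 1, 2 and 3. The ranges overlapped, with WT library 2 above all KO libraries and KO library 2 below all WT libraries. These values rest on 30 to 49 counts in KO and 31 to 75 counts in WT; the lowest KO count of 30 has a 95% exact Poisson interval of 20.2 to 42.8 counts and the highest WT count of 75 one of 59 to 94, for counting error only. The log2 fold change was -0.10 (SE 0.38); it was 0.18 without KO library 2 and 0.30 without WT library 2, so 1 library decides its direction.

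Sox10 (ENSMUSG00000033006, chromosome 15), the lineage factor, had 2.52, 2.96 and 5.22 CPM in KO libraries 1, 2 and 3, against 2.87, 3.27 and 4.06 CPM in WT libraries 1, 2 and 3. The KO range enclosed the WT range. With 44 to 94 counts in KO and 54 to 85 counts in WT, the log2 fold change was 0.07 (SE 0.33), and 0.25 without KO library 2. It was negative when scaled by library totals alone (-0.08), without KO library 3 (-0.31) and without WT library 1 (-0.04). A difference the size of that in Prx lies within 2 of these standard errors, so these values do not show that a difference of that size was absent from Sox10. The counts of 44 in KO library 1 and 94 in KO library 3 have 95% exact Poisson intervals of 32 to 59.1 and 76 to 115, so the libraries differed by more than counting error.

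S100b (ENSMUSG00000033208, chromosome 10), a calcium-binding protein used to stain Schwann cells, had 5.10, 4.43 and 7.61 CPM in KO libraries 1, 2 and 3, against 3.99, 3.97 and 6.21 CPM in WT libraries 1, 2 and 3. As with Sox10, library 3 was the highest of each genotype. S100b averaged 5.72 ± 1.68 CPM in KO and 4.72 ± 1.29 CPM in WT (SD, n = 3 each), with a log2 fold change of 0.27 (SE 0.29), and the ranges overlapped. The fold change was 0.49 without KO library 2, 0.01 without KO library 3 and 0.52 without WT library 3, and 0.17 and 0.16 without WT libraries 1 and 2.

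Ngfr (ENSMUSG00000000120, chromosome 11), the p75 neurotrophin receptor and the nonmyelinating marker of the set, had 4.30, 6.75 and 4.06 CPM in KO libraries 1, 2 and 3, against 9.47, 14.6 and 6.59 CPM in WT libraries 1, 2 and 3. KO library 2 and WT library 3 met in the middle and the other KO libraries lay below all WT libraries. The means were 5.04 ± 1.49 CPM in KO and 10.2 ± 4.03 CPM in WT (SD, n = 3 each), and the fitted difference was -1.02 on the log2 scale (SE 0.33). It was -1.23 without KO library 2 and -0.67 without WT library 2, the library with the highest Ngfr.

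Levels of different genes were compared as CPM per kilobase of annotated exon (GENCODE M21). Pmp22 was the most abundant member, at 106 ± 11.9 CPM per kilobase in KO and 71.5 ± 1.80 in WT (SD, n = 3 each). Cnp (26.2 ± 9.50 in KO, 32.0 ± 2.76 in WT) and Mbp (19.3 ± 0.978 in KO, 16.2 ± 1.23 in WT) came next; their order held in WT without overlap, but in KO libraries their ranges overlapped. Prx followed at 6.76 ± 0.447 in KO and 4.16 ± 0.434 in WT, where its range overlapped those of S100b and Ngfr. In WT library 2, Ngfr (4.22) was above Prx (3.85). In WT, S100b (3.18 ± 0.869) and Ngfr (2.96 ± 1.17) did not differ beyond their spread, whereas in KO S100b (3.85 ± 1.13) was above Ngfr (1.46 ± 0.432) in every library. Sox10 (1.17 ± 0.475 in KO, 1.11 ± 0.198 in WT) and Gldn (0.473 ± 0.139 in KO, 0.505 ± 0.215 in WT) had the lowest means, although in KO the Sox10 and Ngfr ranges overlapped.

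The myelin genes were next set against Ngfr within each library, which removes any scaling between libraries. The log2 ratio of Prx to Ngfr was 3.06, 2.44 and 3.32 in KO libraries 1, 2 and 3, against 1.23, 0.56 and 1.98 in WT libraries 1, 2 and 3. All KO ratios were above all WT ratios, and the difference of the means was 1.69 on the log2 scale, or 3.22-fold. The difference was 1.54 for Pmp22, 1.24 for Mbp and 0.64 for Cnp, each again without overlap, while the ratios of Sox10, S100b and Gldn to Ngfr overlapped between genotypes, with differences of 0.99, 1.25 and 0.92. Within KO the Pmp22 ratio to Ngfr ranged from 5.04 to 6.10, and within WT from 3.56 to 4.69. Because Ngfr itself was lower in KO on average, the ratio moves with either gene: 37.3% of all other tested genes also had every KO ratio to Ngfr above every WT ratio, and Cnp did so with a lower mean in KO. The median log2 fold change of Prx, Pmp22, Mbp and Cnp exceeded that of Ngfr by 1.43.

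**Figure D2:**
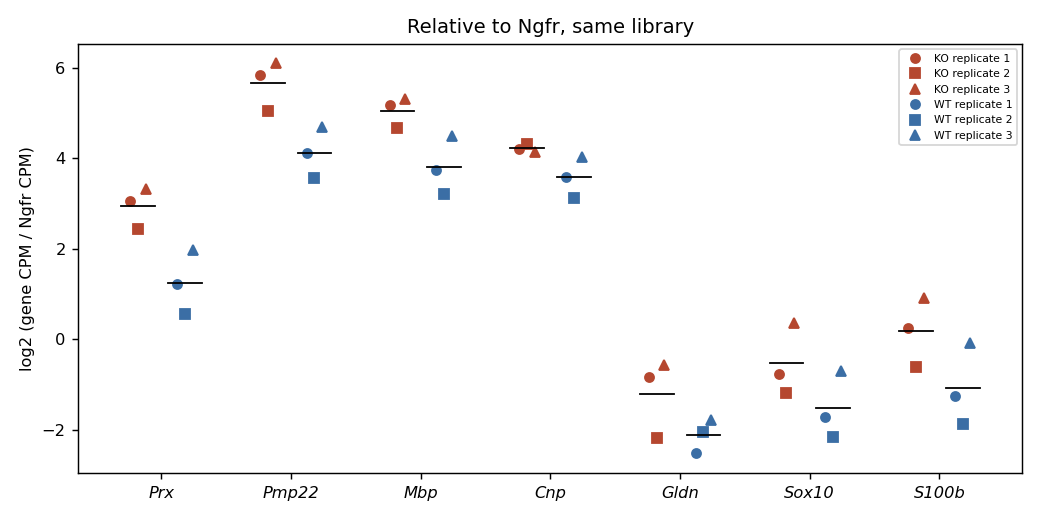
Log2 ratio of each gene's CPM to that of Ngfr in the same library (vertical axis); red symbols are KO libraries, blue symbols WT libraries, and black lines group means (n = 3). Ratios to Ngfr are higher in KO without overlap for Prx, Pmp22, Mbp and Cnp, and overlap for Gldn, Sox10 and S100b.

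The gene profiles most like Prx, Mbp and Ngfr were found among 13327 other named genes with a mean of at least 2 CPM, by the root mean square difference of log2(CPM + 0.5) after each gene was centred over the 6 libraries. The nearest to Prx were Prag1 (0.02), a pseudokinase, then Cntnap1 (0.05), the axonal adhesion protein Caspr of the paranode, and Mief2 (0.06), a mitochondrial fission factor. Prag1 had 30.4, 30.2 and 34.7 CPM in KO libraries 1, 2 and 3, against 18.6, 18.3 and 22.4 CPM in WT libraries 1, 2 and 3, without overlap. Drp2, dystrophin-related protein 2, which binds periaxin in the Schwann cell, was at rank 6, Mal at rank 31, Cldn19 at rank 44 and Pmp22 at rank 80. Other myelin genes were further off: Mbp was at rank 1361, Ncmap at 2140, Gjc3 at 2575, Mag at 7915 and Cnp at 10922. These ranks include the difference between genotypes, on which the members were chosen. The nearest to Mbp were R74862, Trmt2b, a mitochondrial RNA methyltransferase, and Uqcc3, a respiratory complex III assembly factor, at 0.03 each. The nearest to Ngfr were Tyrobp (0.09), an adaptor of myeloid receptors, Cdh11 (0.09), a mesenchymal cadherin, and Plekho2 (0.10). Tyrobp had 31.0, 44.5 and 30.6 CPM in KO libraries 1, 2 and 3, against 72.8, 91.8 and 46.2 CPM in WT libraries 1, 2 and 3, the same order of libraries within each genotype as Ngfr.

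**Figure D3:**
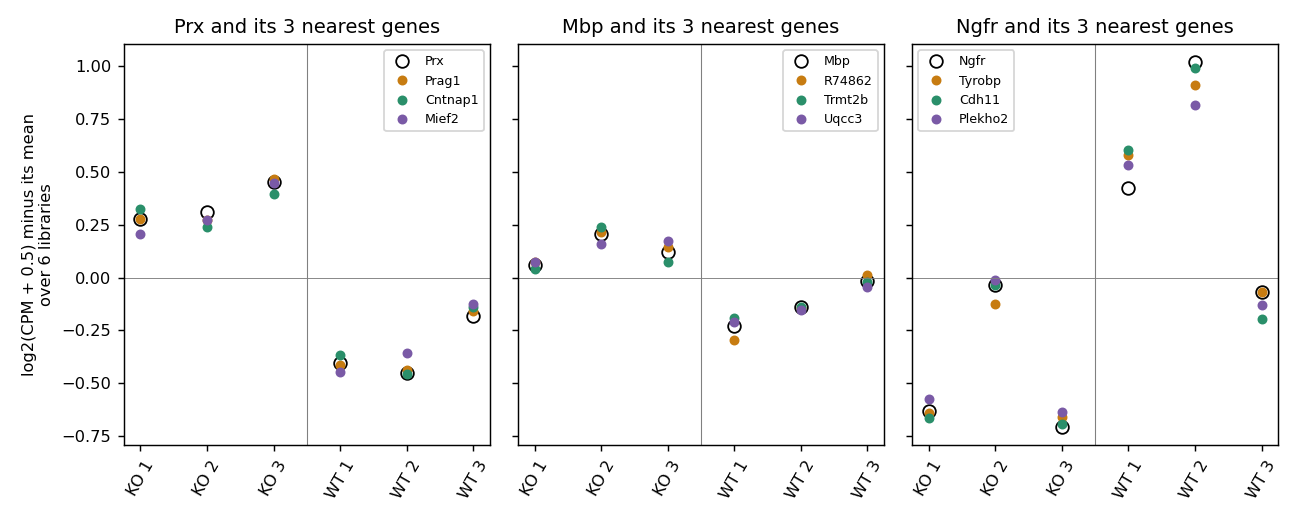
Centred log2(CPM + 0.5) of Prx, Mbp and Ngfr (open circles) and of the 3 genes nearest to each (filled symbols) in the 3 KO and 3 WT libraries. Prx, Prag1 and Cntnap1 run together, with the 3 KO libraries above 0 and the 3 WT libraries below, whereas Ngfr and its neighbours are highest in WT library 2.

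Other Schwann cell and nerve genes were taken from 8 lists of 73 genes, of which 53 were tested. None passed an adjusted p of 0.05 in edgeR, where 1.03% of all tested genes passed, 0.865% higher in KO and 0.162% lower (144 higher and 27 lower, or 129 higher and 49 lower when scaled by library totals alone). At an unadjusted p of 0.05, 9 were higher and 6 lower, against 12.8% and 9.79% of all tested genes in those directions, 22.6% in all. DESeq2 called 7 higher and 3 lower at an adjusted p of 0.05, where it called 10.9% of all genes, 7.34% higher and 3.60% lower, and limma-voom called none. Without KO library 2, edgeR called 10 higher and 4 lower, against 14.5% and 10.9% of all genes in that fit, and without WT library 3 it called 0 higher and 1 lower, against 0.624% and 1.38% of all genes. At an adjusted p of 0.10, a threshold added after the data had been seen, 5 were higher and 1 lower, against 5.52% and 2.75% of all genes, 8.27% in all.

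All 7 tested myelin sheath genes had positive fold changes, against 44.2% of all tested genes, except that Mag was at -0.09 when scaled by library totals alone and -0.21 without WT library 3, and Pmp2 at -0.17 without KO library 1 and -0.02 without WT library 3. The median of the list was 0.42 (log2), against -0.06 over all tested genes. In 4 of the 7 every KO value was above every WT value, against 15.2% of all tested genes. All 5 endothelial and all 6 adipocyte markers were also positive, with medians of 0.42 and 0.81, and 3 and 4 of them did not overlap. All 5 macrophage and all 4 lymphocyte markers were negative, with medians of -0.78 and -0.74. A shared direction was thus not particular to the myelin sheath list. The myelin sheath list was chosen with earlier results of these data known. Mal, a lipid-raft protein of myelin, averaged 16.5 ± 0.655 CPM in KO and 10.2 ± 1.82 CPM in WT (SD, n = 3 each; log2 fold change 0.70, SE 0.16; edgeR adjusted p = 0.0705). Drp2 averaged 21.1 ± 0.734 CPM in KO and 13.9 ± 2.23 CPM in WT (log2 fold change 0.60, SE 0.15; adjusted p = 0.0778). Cldn19, the claudin of Schwann cell tight junctions, averaged 6.19 ± 1.08 CPM in KO and 3.57 ± 0.544 CPM in WT (log2 fold change 0.79, SE 0.23; adjusted p = 0.103). Ncmap, a noncompact myelin protein, averaged 5.24 ± 0.496 CPM in KO and 3.90 ± 0.544 CPM in WT (log2 fold change 0.42, SE 0.21; adjusted p = 0.274). Drp2, Mal, Cldn19 and Ncmap were thus the 4 without overlap, and none passed. Mag, the adhesion molecule of the inner myelin membrane, named after its values were seen, had a log2 fold change of 0.04. Gjb1, the gap junction protein connexin 32, was not tested, with 8 to 13 counts in KO and 6 to 12 counts in WT. None of the 4 enzymes of myelin lipid synthesis passed, and their log2 fold changes were 0.63 for Gal3st1, 0.56 for Ugt8a, 0.44 for Fa2h and -0.004 for Cers2.

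All 6 tested transcription factors of the Schwann cell list had negative fold changes, against 55.8% of all tested genes, except that Nab1 was at 0.09 without KO library 2 and 0.01 without WT library 3. The median was -0.47 (log2), and the difference from the myelin sheath list was not tested. Zeb2 averaged 102 ± 16.7 CPM in KO and 168 ± 4.90 CPM in WT (SD, n = 3 each; log2 fold change -0.72, SE 0.15; edgeR adjusted p = 0.0625). Egr2, named after its values were seen, had 6.54, 9.01 and 4.56 CPM in KO libraries 1, 2 and 3, against 20.3, 21.4 and 8.69 CPM in WT libraries 1, 2 and 3, with overlap between KO library 2 and WT library 3 (log2 fold change -1.32, SE 0.38; adjusted p = 0.104). Zeb2 and Egr2 are also expressed in macrophages, and the 5 macrophage markers summed to 1546, 1869 and 1402 CPM in KO libraries 1, 2 and 3, against 2685, 3210 and 2183 CPM in WT libraries 1, 2 and 3. The part of macrophage RNA in the Ngfr, Egr2 and Zeb2 values was not tested. The log2 fold change was -0.53 for Nab2, a corepressor of EGR factors, -0.06 for Nab1 and -0.14 for Yy1, none past the test. Pou3f1 and Pou3f2 were not tested, with at most 11 counts in any library.

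Among receptors and ligands, 0 of 9 tested genes passed in edgeR, against 1.03% of all tested genes. At an unadjusted p of 0.05, 1 was higher, against 12.8% of all tested genes. The median log2 fold change was -0.04. Dag1, the dystroglycan that binds Drp2 and periaxin complexes to the basal lamina, averaged 219 ± 34.7 CPM in KO and 168 ± 8.11 CPM in WT (SD, n = 3 each; log2 fold change 0.39; adjusted p = 0.183). Erbb3, the neuregulin receptor of Schwann cells, named after its values were seen, averaged 7.61 ± 0.807 CPM in KO and 8.84 ± 0.644 CPM in WT. The log2 fold changes were 0.22 for Itga6, -0.04 for Lama2 and -0.11 for Itgb4. The nonmyelinating, immature and repair list had 7 tested genes of 14 and a median of 0.40; Scn7a, a sodium channel subunit of nonmyelinating Schwann cells, had 174, 100.1 and 170 CPM in KO libraries 1, 2 and 3, against 96.5, 89.7 and 151 CPM in WT libraries 1, 2 and 3. The Scn7a ranges overlapped with KO higher on average, while Ngfr was lower in KO on average. Runx2 had a log2 fold change of -0.72, L1cam one of -0.26 and Cdh2 one of -0.13. The other tested genes of that list, named after their values were seen, lay the other way, at 0.62 for Ncam1, which did not overlap, 0.48 for Cdh19 and 0.40 for Gap43.

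Of the node and adhesion genes, Cntnap1 averaged 13.0 ± 0.730 CPM in KO and 8.19 ± 1.01 CPM in WT without overlap (SD, n = 3 each; log2 fold change 0.67, SE 0.16; edgeR adjusted p = 0.0721). Cadm3 and Epb41l3 lay the other way without overlap, with log2 fold changes of -0.64 and -0.81 (adjusted p = 0.115 and 0.102), and Cadm4 had one of 0.38. Among the neurotrophin receptors, Sort1, the sortilin that pairs with Ngfr, averaged 428 ± 107 CPM in KO and 252 ± 14.4 CPM in WT (log2 fold change 0.76, adjusted p = 0.0895), and Ntrk3 40.1 ± 8.15 CPM in KO and 22.8 ± 7.58 CPM in WT (log2 fold change 0.81, adjusted p = 0.136). Within KO, Sort1 was lowest in library 2 (306 CPM), as were the summed adipocyte markers (10531 CPM). The part of adipocyte RNA in the Sort1 values was not tested. Sorcs2 had a log2 fold change of 0.60 and Ntrk2 one of 0.28. Neuronal transcripts were sparse: of 9 listed, 3 were tested and none passed. Their log2 fold changes were -0.09 for Stmn2, 0.01 for Uchl1 and -0.91 for Tubb3, and only Tubb3 did not overlap. Prph, not tested, had 5 to 15 counts in KO and 3 to 10 counts in WT. Nefl, Nefm and Snap25, named after their values were seen, had at most 6 counts in any library. Axons carry little of their neurons' mRNA, so these values say little about axon content.

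**Figure D4:**
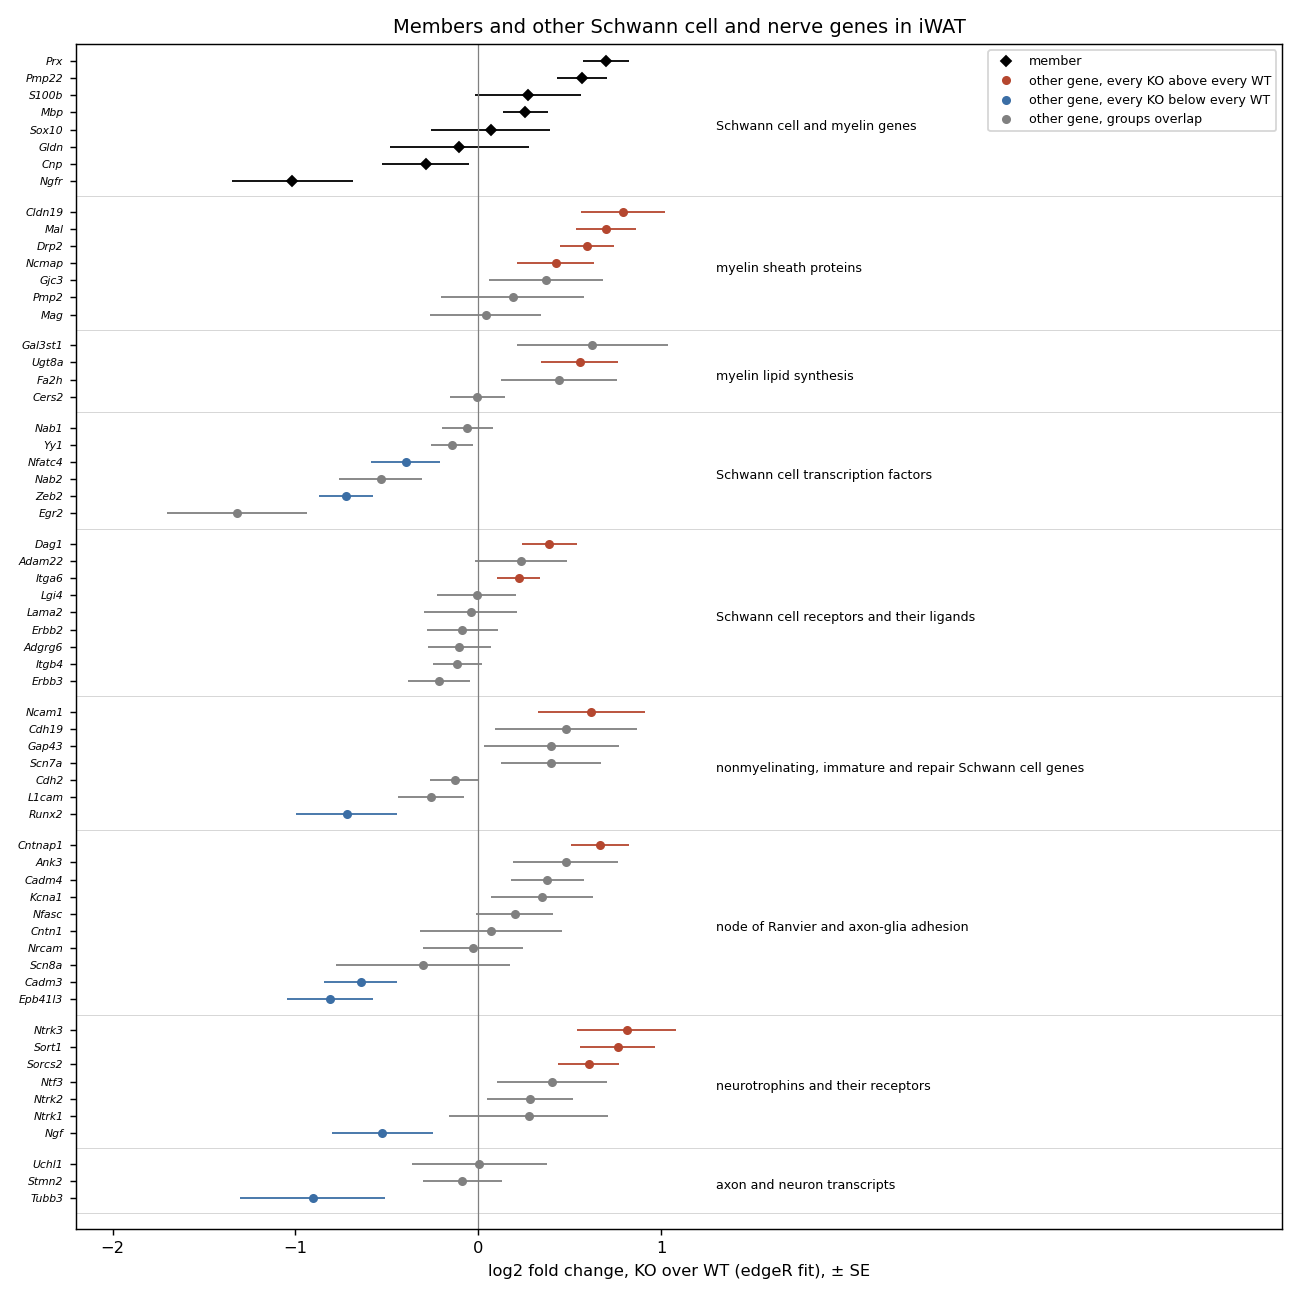
Log2 fold change, KO over WT, with its standard error (horizontal axis) for the 8 members (black diamonds) and the 53 tested genes of the other lists (circles), coloured by whether every KO value lay above (red) or below (blue) every WT value. Myelin sheath genes lie to the right of 0, Schwann cell transcription factors to the left, and Ngfr is the lowest member.

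Markers of other tissues were set beside the myelin genes in every library. The 8 genes of the myelin sheath list summed to 57.5, 54.1 and 58.0 CPM in KO libraries 1, 2 and 3, against 35.9, 36.6 and 41.9 CPM in WT libraries 1, 2 and 3, so the 3 KO libraries differed from each other by 1.07-fold at most. Among the same KO libraries, skeletal muscle markers differed 6.16-fold, adipocyte markers 1.75-fold, endothelial markers 1.21-fold and mural cell markers 1.06-fold. A narrow spread of the sum within KO was thus not particular to the myelin list. The mural sum joins genes that moved in opposite ways, however. Within KO, Rgs5 was lowest in library 2 (244 CPM) and Acta2 highest there (184 CPM). Both were named after their values were seen, as were Cspg4 and Pdgfrb. Log2 fold changes were 0.55 for Rgs5, 0.50 for Cspg4, -0.41 for Pdgfrb and -0.35 for Acta2, all with overlap. In edgeR's test over all genes, 5 of 5 skeletal muscle markers were higher, against 0.865% of all tested genes. The muscle sum was lowest in library 2 (526 CPM) and highest in library 1 (3235 CPM) among KO libraries, against 7.74 to 14.3 CPM in WT. All 3 KO muscle sums were above all WT sums, and the part of muscle tissue in the myelin values was not tested. Summed endothelial markers were 985 to 1187 CPM in KO and 806 to 897 CPM in WT, and mural cell markers 709 to 749 CPM in KO and 636 to 683 CPM in WT. No gene of either list passed in edgeR, and neither did any of the myelin sheath list. The endothelial markers Kdr, Cdh5 and Tie1, named after their values were seen, were higher in KO without overlap (log2 fold changes 0.59, 0.54 and 0.42). Emcn (0.17) and Pecam1 (0.02) overlapped. DESeq2 called 2 of the 5 endothelial, 0 of the 6 mural and 3 of the 7 myelin sheath genes higher, against 7.34% of all genes. The part of endothelial and mural cell RNA in the Prx and Pmp22 values was not tested. Fibroblast and progenitor markers summed to 1889 to 3620 CPM in KO and 2992 to 3386 CPM in WT. Oligodendrocyte markers of the central nervous system were near 0: Mog, Mobp, Hapln2 and Olig2 together gave 29 counts in all 6 libraries. The melanocyte markers, of another Sox10 lineage, summed to 14.7 to 25.2 CPM in KO and 19.2 to 23.6 CPM in WT, most of it Mitf. Of the 3 tested, 1 was higher in KO without overlap, against 15.2% of all tested genes. It was Dct, with 14 to 22 counts in KO and 10 to 12 in WT (log2 fold change 0.76, edgeR adjusted p = 0.221). Pmel (0.25) and Mitf (-0.07) overlapped, and Tyrp1 had at most 3 counts in any library. The epithelial markers summed to 0.889 to 4.01 CPM in KO and 1.92 to 7.07 CPM in WT.

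**Figure D5:**
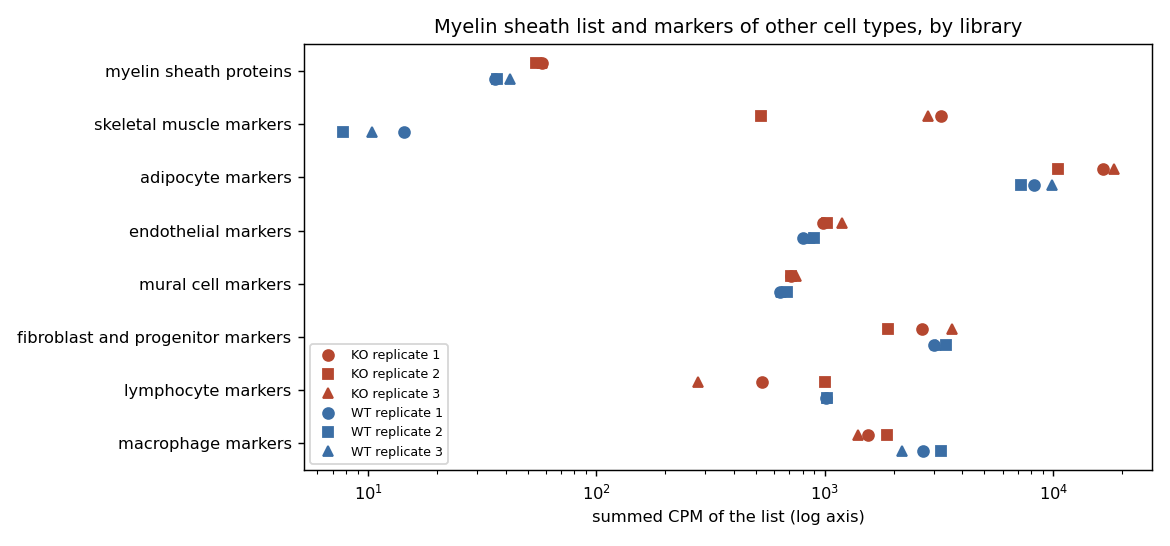
Summed TMM-normalised CPM (log axis) of the myelin sheath list and of markers of other cell types; red symbols are KO libraries, blue symbols WT libraries, 1 symbol per library. The myelin sums of the 3 KO libraries (54.1 to 58.0 CPM) lie together above the WT sums, as do the mural cell sums (709 to 749 CPM). Taken singly, 0 of the 6 mural cell markers were above WT without overlap. Muscle and lymphocyte sums spread widely within KO.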

How the data were processed

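Poly(A) RNA of iWAT was sequenced from stranded Illumina libraries, per the labels' protocols. Estimated counts per gene were deposited, unscaled between libraries; 9.53% to 11.1% of values per library were not whole. No source used here names the quantifier. The submitters' processing notes list fastp, featureCounts, GRCm38 and GRCm39 without saying which apply to iWAT, so how reads of overlapping or similar genes were assigned is unknown. Promoter sequences and exon lengths come from GRCm38 references, which may not be the authors' build; the only coordinates printed are RefSeq's own.

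Estimated counts were rounded. Symbols (GENCODE M21) matched 26372 of 33200 identifiers (79.4%); Ntf5, Th, Dbh and Opalin were not matched and are not analysed here. edgeR 4.0.16 (R 4.3.3) was run with TMM, filterByExpr, robust quasi-likelihood F-tests, two-sided, and Benjamini-Hochberg adjustment over 16656 genes; standard errors are the fold change over the root of F. Alternatives used DESeq2 1.42.0 and limma 3.58.1. The code was tested on simulated data. In the log scale for likeness, 0.5 CPM was added. One count equals 0.0466 to 0.0574 CPM. No libraries held identical values. The labels call the libraries biological replicates.

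Members and lists were chosen with earlier results of these data known. Some list genes are not reported here; they were left out of lists and likeness ranks but stayed in the fit. Named genes are the 8 members, Nrep, list genes past the test, otherwise up to 4 per pathway list and 2 per marker list by mean CPM, and the 3 genes nearest to Prx, Mbp and Ngfr; others are said to be chosen after their values were seen, as were the likeness ranks past the third and the adipocyte, oligodendrocyte and melanocyte marker genes listed by name.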

Additional observations from a re-analysis of the deposited data

How the results depend on the processing

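The signs of Prx, Mbp, Pmp22, Cnp, S100b and Ngfr were kept in all 14 alternatives, which reuse the same libraries. Sox10 turned to -0.078 with library totals alone, -0.31 without KO library 3 and -0.039 without WT library 1 (highest 0.262 with 1 library left out), and Gldn to 0.177 without KO library 2 and 0.302 without WT library 2 (lowest -0.299). The median of the 8 members ran from -0.054 to 0.277 when 1 library was left out, the lowest being without KO library 3. The excess of the 4 myelin genes over Ngfr ran from 1.085 to 1.72.

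The count of genes called moved widely. The 171 genes (144 higher, 27 lower) became 1823 (1223 and 600) with DESeq2, 16 (15 and 1) with limma-voom, 1370 (928 and 442) with no filter, 1225 (790 and 435) with a replicate block and 1378 (920 and 458) at an adjusted p of 0.10; scaling by totals alone called 129 higher and 49 lower. With each library left out in turn, 1 to 4221 passed (0 to 2410 higher, 1 to 1811 lower): 4221 without KO library 2, 334 without WT library 3, and 1 to 3 without any other. For the 53 pathway genes, 0 became 10 (7 and 3) with DESeq2, 1 (lower) with library totals, 7 (4 and 3) with no filter, 5 (2 and 3) with the block, 6 (5 and 1) at 0.10, and 0 to 14 (0 to 10 higher, 0 to 4 lower) without 1 library. The cause was not tested.

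Same-numbered KO and WT libraries deviated with correlations of -0.01, 0.22 and 0.11. KO library 1 correlated best with WT library 3 (0.18), but KO libraries 2 and 3 did so with their same-numbered WT libraries. These values do not settle whether the numbers mark pairs, and the main fit used no pairing. The replicate block left the median of the members at 0.14. Gldn, Sox10 and S100b rest on 30 to 137 counts per library, which limits their precision.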

Other observations

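Gdnf, the glial neurotrophic factor made by repair Schwann cells, was too low to test and was picked out after its values were seen: it had 0, 1 and 2 counts in KO libraries 1, 2 and 3, against 15, 29 and 2 counts in WT libraries 1, 2 and 3. WT library 3 was as low as KO. Its ligand family member Artn had at most 4 counts in any library, and the immature or repair genes Sox2, Foxd3 and Olig1 at most 12.

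Several genes of the Schwann cell lists had profiles nearer to Ngfr than to Prx. Centring over all 6 libraries leaves the genotype difference in this measure, and Prx and Ngfr were chosen on that difference. Genes lower in KO on average, as those named next were, therefore tend to rank nearer to Ngfr, and nothing further is read from the ranks. Among 13327 genes ranked by likeness to Ngfr, Epb41l3 was at rank 134, Runx2 at 236, Nab2 at 290 and Egr2 at 322, and the myelin gene Cnp at 1220, against ranks of 12361, 12265, 11723, 13090 and 10922 by likeness to Prx, in the same order. Mbp was at rank 9394 by likeness to Ngfr and 1361 by likeness to Prx.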
